A study of Mus musculus with 6 samples.

Results

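The small leucine-rich proteoglycans (SLRPs) of the extracellular matrix were followed in primary mouse aortic smooth muscle cells with and without the lysine methyltransferase SMYD2. The 9 genes, Dcn, Bgn, Aspn, Lum, Fmod, Prelp, Omd, Ogn and Podn, were taken by symbol from a table of 18112 genes, and each symbol matched a row. RNA was sequenced from 3 samples of Smyd2 fl/fl cells, labelled Flox, and 3 of Smyd2 SMC-/- cells, labelled SMYD2 KO. Both genotypes were on the C57BL/6 strain and carried the floxed Smyd2 allele on both chromosomes. The Smyd2 SMC-/- mice carried in addition a Cre transgene driven by the Tagln promoter, which is active in smooth muscle but also reported in other cell types. The controls were floxed littermates, named without a Cre transgene, so an effect of Cre itself cannot be told apart from the loss of Smyd2. Age and sex are not in the labels, while the methods describe young adult mice and cohorts balanced for sex, without the sex behind each culture. The labels state that cells were collected at passage 6 in medium with 10% serum, whereas the methods state an earlier passage and overnight starvation. Neither source says whether the 3 samples of a genotype came from separate mice or cultures, so p-values measure the spread between these samples, which may be technical.

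Values are FPKM, the fragments of a gene scaled to its transcript length and to the mapped fragments of the library, so levels can be compared between genes per length. The steps between low values corresponded to a depth of about 17400000 to 19950000 fragments per library, and 1 fragment on a transcript of 2000 bases was worth 0.026 to 0.0299 FPKM. Differences between genotypes are on the log2(FPKM + 1) scale, which understates those of low genes, and come from limma fitted over the 12565 genes that averaged 0.5 FPKM or more. A gene was called when its p, adjusted over all 12565 genes by the Benjamini-Hochberg method, was under 0.05.

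Smyd2, the targeted gene, was at 7.87, 3.10 and 3.0 FPKM in replicates 1 to 3 of Smyd2 fl/fl and at 1.67, 0.40 and 0.80 FPKM in replicates 1 to 3 of Smyd2 SMC-/-. Every Smyd2 SMC-/- library was below every Smyd2 fl/fl library, so the level of the gene did not go against the labels. The log2 difference in limma was −1.48 ± 0.39 (SE), lower in 3 of 3 pairs, with an adjusted p of 0.105 without a block and 0.0189 with the replicate block, that is with the replicate number as a term. FPKM covers the whole gene, so RNA without the floxed exon still counts towards the value.

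The replicate 1 libraries stood apart from the others in both genotypes. The first principal component of the 6 libraries, with 50.2% of the variance, separated replicate 1 from replicates 2 and 3. The second, with 33.1%, separated the genotypes. On the first, each Smyd2 fl/fl library (−58.6, 3.1 and 2.7) was also below the same-numbered Smyd2 SMC-/- library (−25.4, 39.1 and 39.1). On the second, replicate 1 was also the lowest library of each genotype, at 8.3 and −48.3. Results on the SLRPs are therefore given with all 6 libraries and with replicates 2 and 3 alone. The label of smooth muscle was checked against markers. Acta2, smooth muscle actin, was at 201 to 761 FPKM, and Tagln, which encodes an actin-binding protein of smooth muscle, at 12.5 to 87.3 FPKM. Myh11, the smooth muscle myosin heavy chain that marks contractile cells, was at 0.01 to 0.22 FPKM, and Des, the muscle intermediate filament desmin, at 0 to 0.22 FPKM. In bulk samples such as these, fewer cells of a type and less RNA per cell cannot be told apart.

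SLRPs are secreted core proteins built from leucine-rich repeats, most of which carry chondroitin, dermatan or keratan sulfate chains. They bind collagen fibrils and set their diameter and spacing, and several also bind growth factors such as TGF-beta or signal through cell-surface receptors. In arteries, decorin, biglycan and lumican are matrix components of the wall, made by smooth muscle cells and adventitial fibroblasts. The family is divided into classes by sequence. Dcn, Bgn and Aspn belong to class I, Lum, Fmod, Prelp and Omd to class II, Ogn to class III, and Podn to a non-canonical class.

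All 9 SLRP genes passed the filter on low values. Of the 9, 1 gene, Aspn, was called, being lower in Smyd2 SMC-/- cells, and this share of 11.1% stood beside 2.44% of all genes tested (306 of 12565, 154 higher and 152 lower). Aspn passed the filter only through the Smyd2 fl/fl libraries, so it had to differ to be tested at all. Nothing is read from that share, nor from the other counts and shares of SLRP genes below that include Aspn. In the fit with no filter, over 18112 genes, its adjusted p in limma was 0.0349. At an unadjusted p under 0.05 in limma, 2 SLRP genes were higher and 1, Aspn, was lower, or 33.3% beside 20.3% of all genes. With the replicate number as a block, 3 SLRP genes were called, Fmod and Podn higher and Aspn lower, beside 10.4% of all genes (1312 genes). With a term for replicate 1 against replicates 2 and 3, 6 were called (5 up and 1 down), beside 20.3% of all genes. In replicates 2 and 3 alone, 5 were called, Lum, Fmod and Podn higher and Aspn and Omd lower, beside 29.0% of all genes. The number called without 1 library ranged from 0 to 3. It was 0 without Smyd2 fl/fl replicate 2 or 3, beside 34 and 36 of all 12565 genes. Without Smyd2 SMC-/- replicate 2 or 3 it was also 0, beside 55 and 39 of all genes. It was 2 without Smyd2 fl/fl replicate 1, beside 277 of all genes, and 3 without Smyd2 SMC-/- replicate 1, beside 686. Rescaling each library to a common total (TPM) moved the median difference of all genes by 0.11, from −0.02 to 0.10, and the calls over all genes from 154 higher and 152 lower to 247 higher and 99 lower. After that rescaling, 1 of the 9 SLRP genes was called.

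**Figure D1:**
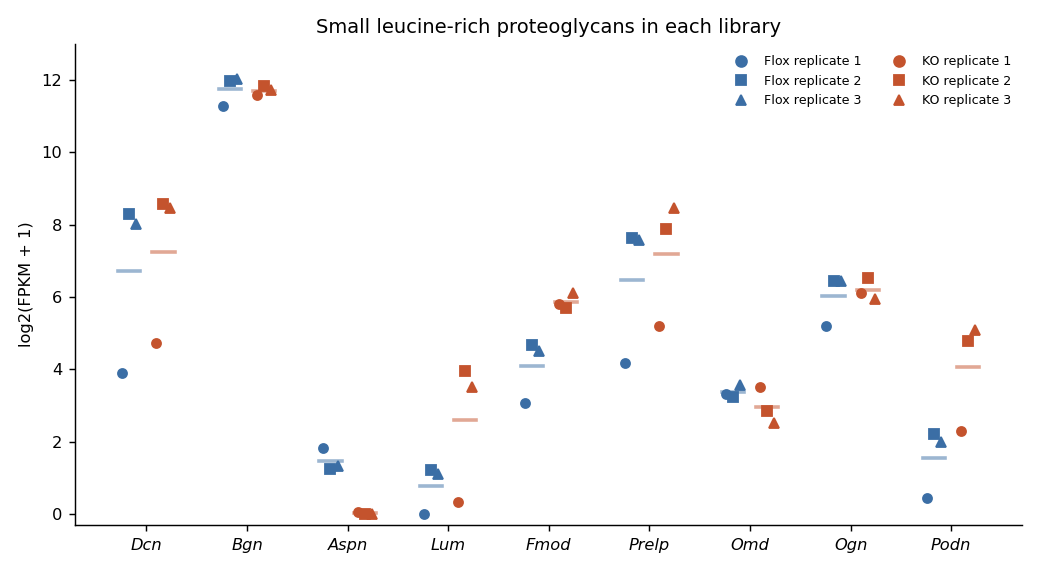
Level of each SLRP gene in each library as log2(FPKM + 1), with Smyd2 fl/fl (Flox) in blue and Smyd2 SMC-/- (KO) in orange, circles for replicate 1, squares for replicate 2, triangles for replicate 3 and a bar at each group's mean of the 3 log2 values. Bgn is the highest gene in every library, and the replicate 1 circles of Dcn and Prelp lie far below replicates 2 and 3 in both genotypes.

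The 2 genotypes did not overlap at 3 SLRP genes, Fmod and Podn, which were higher in every Smyd2 SMC-/- library than in any Smyd2 fl/fl library, and Aspn, which was lower. That was 33.3% of the SLRP genes, beside 28.1% of all genes tested. The difference had 1 direction in all 3 same-numbered pairs at 6 SLRP genes, 5 higher and 1 lower, beside 55.1% of all genes. Both counts include Aspn, which had to differ to pass the filter, so nothing is read from these shares. Promoters are shown for the 3 genes whose groups did not overlap, as the 250 bases before the start of each gene on its own strand, 5′ to 3′, from RefSeq on build GRCm38.p6. Entries were found for 7 of the 9 genes, those other than Dcn and Lum, and of the 2 entries of Podn the one farther upstream is shown. Both strands were searched, with overlaps counted, for the TATA element (TATAAA), the GC box (GGGCGG), the AP-1 element (TGANTCA) and the CArG box, and capitals mark the matches.
Aspn, chr13:49544193-49544442, plus strand: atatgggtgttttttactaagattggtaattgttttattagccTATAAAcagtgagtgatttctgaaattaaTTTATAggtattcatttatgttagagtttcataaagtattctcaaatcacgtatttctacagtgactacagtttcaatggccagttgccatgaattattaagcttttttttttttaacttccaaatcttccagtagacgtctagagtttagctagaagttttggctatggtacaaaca
Fmod, chr1:134037004-134037253, plus strand: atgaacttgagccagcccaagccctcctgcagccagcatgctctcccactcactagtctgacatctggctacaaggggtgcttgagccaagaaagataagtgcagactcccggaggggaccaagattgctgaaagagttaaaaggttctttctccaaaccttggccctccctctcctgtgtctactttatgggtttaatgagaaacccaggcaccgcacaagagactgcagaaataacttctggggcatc
Podn, chr4:108031955-108032204, minus strand: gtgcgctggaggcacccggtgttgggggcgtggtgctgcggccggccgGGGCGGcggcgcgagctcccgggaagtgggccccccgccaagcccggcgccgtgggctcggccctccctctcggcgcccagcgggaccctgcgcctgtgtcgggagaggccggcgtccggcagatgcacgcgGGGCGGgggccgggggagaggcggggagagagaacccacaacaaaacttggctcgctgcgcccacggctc
The Aspn window held 2 matches to TATAAA, and 12.4% of 32851 promoter windows of that length held at least 1. The Podn window held 2 matches to GGGCGG, found in 32.7% of all windows, whereas the second Podn entry held none of the 4 and had 64.0% G and C. The Fmod window held none of the 4. Both elements were also found at SLRP genes whose genotypes overlapped, with 2 matches to TATAAA at Ogn and 3 matches to GGGCGG at Bgn. The elements TGANTCA and the CArG box, found in 6.75% and 1.47% of all windows, matched none of the 7 genes. Base composition differed, with 30% G and C for Aspn, 51.2% for Fmod and 78.0% for Podn, beside a median of 52.4% over all windows. A match is a description of the sequence only.

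In class I, Aspn fell, Bgn was the most abundant SLRP gene in every library, and Dcn varied mainly between replicate 1 and the other libraries. Aspn encodes asporin, a SLRP that binds collagen and can hold TGF-beta away from its receptor. It was at 2.57, 1.35 and 1.49 FPKM in replicates 1 to 3 of Smyd2 fl/fl and at 0.05 FPKM in Smyd2 SMC-/- replicate 1, and it was listed at 0 in Smyd2 SMC-/- replicates 2 and 3. By its length these values correspond to about 107, 61 and 66 fragments in Smyd2 fl/fl against 2, 0 and 0 in Smyd2 SMC-/-. All Smyd2 fl/fl libraries were thus above all Smyd2 SMC-/- libraries, at a low level. The log2 difference was −1.44 ± 0.21 (SE; adjusted p = 0.0270, limma), lower in 3 of 3 pairs. Aspn passed the filter on low values only through Smyd2 fl/fl, so it had to differ to be tested there. With no filter its adjusted p in limma was 0.0349. At this low level the size depends on the scale, and the difference was −4.00 with a pseudocount of 0.1 and −2.28 after rescaling to TPM. In replicates 2 and 3 alone it was −1.27 (adjusted p = 0.000688, limma). Over the alternatives tried the adjusted p lay between 0.000688 and 0.146, and the call was lost without Smyd2 fl/fl replicate 2 (0.0991) or 3 (0.124) and without Smyd2 SMC-/- replicate 2 (0.127) or 3 (0.146). The extent of Cenpp, a centromere protein gene at 1.36 to 2.84 FPKM, overlaps those of Aspn, Omd and Ogn, and without a statement that strand was used, reads from shared stretches cannot be told apart.

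Bgn encodes biglycan, a SLRP with chondroitin or dermatan sulfate chains that is also a ligand of innate immune receptors. It was at 2488, 4004 and 4164 FPKM in replicates 1 to 3 of Smyd2 fl/fl and at 3075, 3659 and 3359 FPKM in replicates 1 to 3 of Smyd2 SMC-/-. In each library it ranked as number 2 or 3 of all genes by FPKM, and the genotypes overlapped. Its log2 difference was −0.04 ± 0.22 (SE; adjusted p = 0.942, limma), and it was above 0 after rescaling to TPM (0.080) and after quantile normalization (0.12). It was lower in the replicate 2 and 3 pairs (−0.13 and −0.31) and higher in the replicate 1 pair (0.31). In replicates 2 and 3 alone the log2 difference was −0.22 (adjusted p = 0.291, limma).

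Dcn encodes decorin, which binds collagen fibrils and TGF-beta. It was at 13.9, 311.0 and 256.7 FPKM in replicates 1 to 3 of Smyd2 fl/fl and at 25.6, 382.9 and 350.5 FPKM in replicates 1 to 3 of Smyd2 SMC-/-. The mean of replicates 2 and 3 was 20.4 times the replicate 1 value in Smyd2 fl/fl and 14.3 times in Smyd2 SMC-/-, so the spread within each genotype was far larger than the difference between them. Within each same-numbered pair the Smyd2 SMC-/- library was higher, by 1.84, 1.23 and 1.37 times. The log2 difference was 0.53 ± 1.49 (SE; adjusted p = 0.890, limma), and its adjusted p was 0.0702 with the replicate block, 0.0418 with a term for replicate 1 and 0.0791 in replicates 2 and 3 alone, with a range of 0.0418 to 0.993 over the alternatives. The sign turned without Smyd2 fl/fl replicate 1 (−0.89) and without Smyd2 SMC-/- replicate 2 (−0.14) or 3 (−0.07).

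In class II, Fmod was higher in each Smyd2 SMC-/- library, Lum was higher in Smyd2 SMC-/- replicates 2 and 3, and Prelp followed a pattern over the libraries like that of Dcn. Fmod encodes fibromodulin, a keratan sulfate SLRP that shapes collagen fibrils and modulates their crosslinking. It was at 7.34, 24.4 and 21.9 FPKM in replicates 1 to 3 of Smyd2 fl/fl and at 54.6, 51.2 and 68.0 FPKM in replicates 1 to 3 of Smyd2 SMC-/-. The group means were 17.9 ± 9.22 and 57.9 ± 8.90 FPKM (SD, n = 3 each), with no overlap. On the log2 scale the difference was 1.79 ± 0.42 (SE), higher in 3 of 3 pairs, with an adjusted p in limma of 0.0808 without a block, 0.0417 with the replicate block and 0.000831 in replicates 2 and 3 alone. Over all alternatives the adjusted p lay between 0.000831 and 0.274. Fmod was thus past the threshold only in some of the fits, and its difference was above 0 in each of them.

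Lum encodes lumican, a keratan sulfate SLRP of collagen fibrils best known from the cornea and also found in the artery wall. It was listed at 0 in Smyd2 fl/fl replicate 1 and was at 1.31 and 1.17 FPKM in replicates 2 and 3. In Smyd2 SMC-/- it was at 0.26 FPKM in replicate 1 and at 14.5 and 10.4 FPKM in replicates 2 and 3. The genotypes overlapped through Smyd2 SMC-/- replicate 1, which lay below Smyd2 fl/fl replicates 2 and 3. The log2 difference was 1.82 ± 0.95 (SE; adjusted p = 0.342, limma) in all 6 libraries and 2.57 ± 0.17 (adjusted p = 7.4e-05, limma) in replicates 2 and 3 alone, where Smyd2 SMC-/- was 11.1 and 8.88 times as high in the 2 pairs. Those folds are against about 62 and 55 fragments in Smyd2 fl/fl. In all 6 libraries the adjusted p in limma was 0.0826 with the replicate block and 0.0467 with a term for replicate 1. Without Smyd2 SMC-/- replicate 1 the difference was 2.96 (adjusted p = 0.0231, limma), without Smyd2 SMC-/- replicate 2 it was 1.15 and with a pseudocount of 0.1 it was 2.76, and the highest adjusted p of the alternatives was 0.673.

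Prelp encodes a SLRP that links the matrix to basement membranes through heparan sulfate. It was at 17.3, 196.7 and 188.5 FPKM in replicates 1 to 3 of Smyd2 fl/fl and at 36.1, 237.0 and 354.1 FPKM in replicates 1 to 3 of Smyd2 SMC-/-. Its mean in replicates 2 and 3 was 11.2 times the replicate 1 value in Smyd2 fl/fl and 8.19 times in Smyd2 SMC-/-, and the genotypes overlapped. Its difference on the log2 scale was 0.73 ± 1.19 (SE; adjusted p = 0.792, limma), higher in 3 of 3 pairs, with an adjusted p of 0.0607 with the replicate block and 0.0324 with a term for replicate 1, and a highest value of 0.989 over the alternatives. In replicates 2 and 3 alone the difference was 0.59 (adjusted p = 0.0528, limma). The sign turned without Smyd2 fl/fl replicate 1 (−0.40). Omd encodes osteomodulin, a SLRP known from bone. It ranged from 8.37 to 11 FPKM in Smyd2 fl/fl and from 4.76 to 10.5 FPKM in Smyd2 SMC-/-, where replicate 1 was the highest library. Its log2 difference was −0.41 ± 0.27 (SE; adjusted p = 0.465, limma) in all libraries and −0.72 ± 0.16 (adjusted p = 0.0153, limma) in replicates 2 and 3 alone. It was −0.69 without Smyd2 SMC-/- replicate 1 and −0.19 without Smyd2 SMC-/- replicate 3, with an adjusted p of up to 0.834 over the alternatives.

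In class III, Ogn, which encodes osteoglycin or mimecan, did not pass the test. It ranged from 36.1 to 86.4 FPKM in Smyd2 fl/fl and from 61.2 to 92.1 FPKM in Smyd2 SMC-/-, and the lowest library was Smyd2 fl/fl replicate 1. The log2 difference was 0.16 ± 0.36 (SE; adjusted p = 0.854, limma), and the pairs differed in sign, with 0.89, 0.09 and −0.49 for replicates 1 to 3. In replicates 2 and 3 alone the difference was −0.20 (adjusted p = 0.456, limma), and over the alternatives the adjusted p lay between 0.456 and 0.996.

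Podn, of the non-canonical class, encodes podocan, a SLRP that binds collagen and is made by smooth muscle cells. It was at 0.37, 3.63 and 2.99 FPKM in replicates 1 to 3 of Smyd2 fl/fl and at 3.92, 26.4 and 33.2 FPKM in replicates 1 to 3 of Smyd2 SMC-/-. Within the pairs Smyd2 SMC-/- was 10.6, 7.28 and 11.1 times as high, the first against about 21 fragments in Smyd2 fl/fl replicate 1, and the lowest Smyd2 SMC-/- library, replicate 1, was just above the highest Smyd2 fl/fl library. The log2 difference was 2.50 ± 0.82 (SE), higher in 3 of 3 pairs, with an adjusted p in limma of 0.164 without a block, 0.0145 with the replicate block, 0.00194 with a term for replicate 1 and 2.5e-05 in replicates 2 and 3 alone. The highest adjusted p over the alternatives was 0.429. Replicate 1 was the lowest library of each genotype, below the mean of replicates 2 and 3 by 8.95 times in Smyd2 fl/fl and 7.60 times in Smyd2 SMC-/-.

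**Figure D2:**
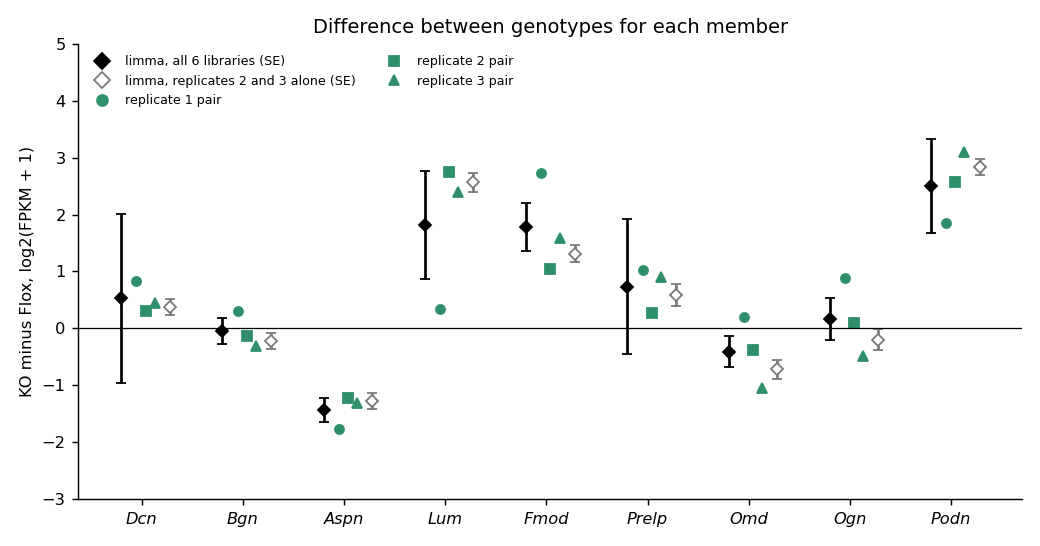
Smyd2 SMC-/- (KO) minus Smyd2 fl/fl (Flox) for each SLRP gene in log2(FPKM + 1), with black diamonds for limma over all 6 libraries, open grey diamonds for limma in replicates 2 and 3 alone (bars, SE) and green symbols for the 3 same-numbered pairs. Podn and Fmod lie above 0 and Aspn below 0 in every pair, and the wide bars of Dcn (0.53 ± 1.49) and Prelp (0.73 ± 1.19) narrow when replicate 1 is left out.

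The difference between genotypes was also read in the replicate 1 pair beside the other 2 pairs. With 1 library per genotype in replicate 1, which was singled out because it stood apart, the spread of that pair is not known, so the comparison is a description and no p is given. For Fmod the difference on the log2 scale was 2.74 in the replicate 1 pair and 1.04 and 1.59 in the others. Fmod in Smyd2 SMC-/- replicate 1 was close to replicates 2 and 3, whereas in Smyd2 fl/fl replicate 1 it was lower than there. For Lum it was 0.33 in the replicate 1 pair and 2.75 and 2.39 in the others, but at levels of 0 and 0.26 FPKM in replicate 1 the pseudocount of 1 leaves little room for a difference. For Podn it was 1.84 in the replicate 1 pair and 2.57 and 3.10 in the others, but the pseudocount shrinks it at 0.37 FPKM, and as a fold the replicate 1 pair (10.6 times) lay between the others (7.28 and 11.1 times).

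The makeup of the SLRP pool was described by the share of each gene in the summed FPKM of the 9 genes. The sum was 2574, 4638 and 4734 FPKM in replicates 1 to 3 of Smyd2 fl/fl and 3274, 4469 and 4241 FPKM in replicates 1 to 3 of Smyd2 SMC-/-, with a two-sided exact permutation p of 1.0, where 0.1 is the smallest that 3 against 3 libraries allow. Bgn made up 90.3% ± 5.54 (SD, n = 3) of the sum in Smyd2 fl/fl and 85.0% ± 7.85 (SD, n = 3) in Smyd2 SMC-/- (exact permutation p = 0.4), and without 1 library the difference lay between −9.78 and −2.15 percentage points. Its share was highest in replicate 1 of both genotypes, 96.6% and 93.9%, where Dcn and Prelp were low. The Fmod share was 0.285%, 0.526% and 0.463% in Smyd2 fl/fl replicates 1 to 3 and 1.67%, 1.15% and 1.60% in Smyd2 SMC-/- replicates 1 to 3 (exact permutation p = 0.1). The shares of Podn and Aspn did not overlap between genotypes either (exact permutation p = 0.1 each), and those of the other genes did. Without Bgn, the other 8 genes summed to 429.9 ± 299.1 FPKM in Smyd2 fl/fl and 630.4 ± 375.5 FPKM in Smyd2 SMC-/- (SD, n = 3 each; exact permutation p = 0.5).

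Genes that build, bind or cleave SLRPs were followed in 8 lists, with 86 genes tested. The gene called the highest of a list is that with the highest mean FPKM over the 6 libraries. Of the 86, 5 were called, 4 higher and 1 lower, and 20 with the replicate block and 44 in replicates 2 and 3 alone, beside the shares of all genes given above. Among enzymes and transporters of chondroitin and dermatan sulfate synthesis, 3 of 20 tested genes rose and none fell, 1 of the 3, Chst15, having passed the filter on low values only through the Smyd2 SMC-/- libraries. The list median was 0.14 beside −0.02 for all genes, 5 were higher and 2 lower at an unadjusted p under 0.05, and with the block 4 were higher and 1 was lower, against 7 and 2 in replicates 2 and 3 alone. The 3 were sulfotransferases of the chain. Chst12, the highest gene of the list although below Dse in Smyd2 fl/fl replicate 1, was at 35.0, 43.3 and 42.5 FPKM in Smyd2 fl/fl against 67.9, 83.5 and 69.3 FPKM in replicates 1 to 3 of Smyd2 SMC-/- (log2 difference 0.85 ± 0.15, SE; adjusted p = 0.0421, limma). Chst11 (1.18 ± 0.17, SE; adjusted p = 0.0235, limma) rose from 3.12 to 4.64 FPKM to 9.35 to 11 FPKM. Chst15 (1.70 ± 0.18, SE; adjusted p = 0.0112, limma) rose from 0.27 to 0.48 FPKM to 3.04 to 4.34 FPKM. In each of the 3 the genotypes did not overlap. With no filter the adjusted p was 0.0166 for Chst15, which had to differ to pass it, and 0.0580 for Chst12, which was then not called. Without replicate 2 or 3 of either genotype the adjusted p of the 3 lay between 0.0508 and 0.167, and Chst12 was also not called without Smyd2 fl/fl replicate 1 (0.0634). Of 5 tested genes of keratan sulfate synthesis, none was called by limma (list median −0.25), and 1 was lower at an unadjusted p under 0.05, while 2 were higher with the block, and 2 were higher and 2 lower in replicates 2 and 3 alone. The highest but for Chst1 in Smyd2 fl/fl replicate 1, B4galt1, which adds galactose to the chain, was at 23.2 to 40.6 FPKM in Smyd2 fl/fl against 38.0 to 61.5 FPKM in Smyd2 SMC-/- (adjusted p = 0.248, limma; 0.0275 with the block).

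The next list held 12 chains of fibril collagens, of collagens on the fibril surface and of collagen VI, which forms separate microfibrils. Of the 12, 1 chain, of collagen VI, fell and none rose (list median 0.28). At an unadjusted p under 0.05, 3 were higher and 2 lower, and with the block 1 was higher and 1 lower. In replicates 2 and 3 alone 1 was higher and 3 were lower, and the list median was −0.03. Col6a3, a chain of the microfibrillar collagen VI, was at 13.7, 10.5 and 13.5 FPKM in Smyd2 fl/fl against 1.27, 4.0 and 3.41 FPKM in replicates 1 to 3 of Smyd2 SMC-/- (log2 difference −1.87 ± 0.31, SE; adjusted p = 0.0409, limma). With no filter its adjusted p was 0.0629. The gene with the largest difference of the list, Col14a1 of the fibril-associated collagen XIV, was at 6.49, 24.7 and 26.8 FPKM in Smyd2 fl/fl against 64.8, 160.1 and 196.8 FPKM in replicates 1 to 3 of Smyd2 SMC-/- (2.87 ± 0.62, SE; adjusted p = 0.0683, limma; 0.00320 with the block), with no overlap. Over the 6 libraries the highest chain was Col1a1 of collagen I, though Col6a1 was above it in Smyd2 fl/fl replicates 2 and 3. Col1a1 was at 362.2 to 491.0 FPKM in Smyd2 fl/fl against 521.7 to 1333 FPKM in Smyd2 SMC-/- (0.96 ± 0.34, SE; adjusted p = 0.186, limma). Of 11 tested genes of collagen processing and crosslinking, none was called by limma (list median 0.25), 2 were higher and 1 was lower at an unadjusted p under 0.05, and 3 were higher with the block, against 4 higher and 2 lower in replicates 2 and 3 alone. Its highest gene by the mean was the lysyl oxidase Lox, but Pcolce, which encodes an enhancer of procollagen cleavage, was above it in 4 of the 6 libraries, at 339.5, 384.3 and 389.6 FPKM in Smyd2 fl/fl against 521.2, 335.1 and 319.7 FPKM in replicates 1 to 3 of Smyd2 SMC-/- (0.05 ± 0.21, SE; adjusted p = 0.938, limma). Lox was at 82.6, 327.3 and 315.4 FPKM in Smyd2 fl/fl against 346.8, 1075 and 984.4 FPKM in replicates 1 to 3 of Smyd2 SMC-/- (1.80 ± 0.66, SE; adjusted p = 0.199, limma; 0.00662 with the block). Of 9 tested proteases that cleave SLRPs, 1 rose and none fell (list median 0.08), 2 were higher and none lower at an unadjusted p under 0.05, and 2 were higher and 2 lower with the block, 2 and 3 in replicates 2 and 3 alone. Adamts9, a secreted metalloproteinase, was at 2.11 to 3.67 FPKM in Smyd2 fl/fl against 8.06 to 12.6 FPKM in Smyd2 SMC-/- (1.61 ± 0.24, SE; adjusted p = 0.0270, limma). Col6a3 was called without Smyd2 SMC-/- replicate 1 but not without any other library (adjusted p from 0.0830 to 0.171), and Adamts9 was not called without replicate 2 or 3 of either genotype (0.0625 to 0.148). Mmp14, the membrane-bound metalloproteinase with the highest level, was at 171.5 to 322.2 and 332.2 to 344.3 FPKM (0.38 ± 0.26, SE; adjusted p = 0.476, limma).

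Of 12 SLRP ligands and receptors, none was called by limma (list median 0.32), 1 was higher at an unadjusted p under 0.05, and 1 was higher with the block and 6 in replicates 2 and 3 alone. The highest except in Smyd2 SMC-/- replicate 2, where Ccn2 was above it, the integrin chain Itgb1, was at 302.1 to 332.3 FPKM in Smyd2 fl/fl against 299.4 to 335.2 FPKM in Smyd2 SMC-/- (adjusted p = 0.932, limma). Of 14 tested genes of other proteoglycans, none was called by limma (list median 0.12), 2 were higher and 2 lower at an unadjusted p under 0.05, and with the block 2 were higher and 1 was lower, against 5 and 3 in replicates 2 and 3 alone. The highest, Hspg2, the perlecan of basement membranes, was at 73.9 to 119.3 and 55.0 to 138.6 FPKM (adjusted p = 0.872, limma). Of 10 other SLRP family genes, 3 passed the filter on low values and none was called by limma (list median −0.18), none at an unadjusted p under 0.05 and none with the block. In replicates 2 and 3 alone 2 of the 3 were lower, Podnl1 (log2 difference −0.66; adjusted p = 0.0114, limma) and Chadl (−0.51; adjusted p = 0.0492, limma), with a list median of −0.51. In the replicate 1 pair Podnl1 was at 3.18 FPKM in Smyd2 fl/fl and at 6.17 FPKM in Smyd2 SMC-/-. The highest, Tsku, which encodes tsukushi, was at 10.4 to 15.3 FPKM in Smyd2 fl/fl against 13.2 to 16 FPKM in Smyd2 SMC-/- (adjusted p = 0.668, limma), and Kera, the keratocan gene of the cornea, was at 0 to 0.04 FPKM.

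**Figure D3:**
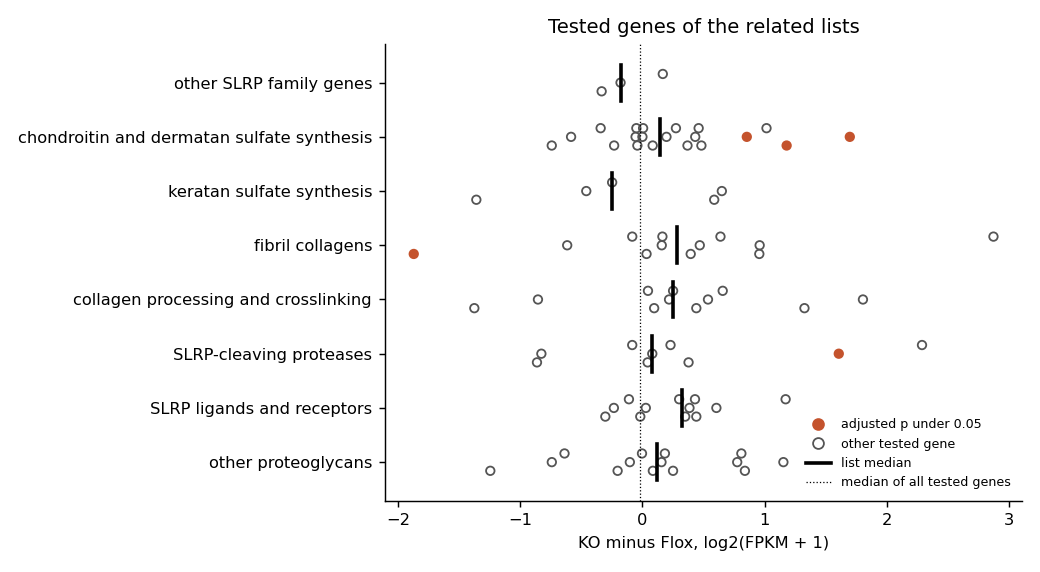
Difference of each tested gene of the 8 related lists, Smyd2 SMC-/- (KO) minus Smyd2 fl/fl (Flox) in log2(FPKM + 1), with filled orange points for genes called by limma, open points for the others, a black bar for each list's median and a dotted line for the median of all tested genes (−0.02). The 3 filled points of chondroitin and dermatan sulfate synthesis lie to the right. That of the list named fibril collagens, Col6a3 of the microfibrillar collagen VI, lies to the left at −1.87.

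Markers of the cell types such a culture could hold were read beside the SLRPs. The methods state that the endothelium and the adventitial layer were removed before the cells were freed from the media. All 9 adventitial fibroblast markers were in the table, and 2 of 8 tested fell, Dpt (log2 difference −5.28 ± 0.43, SE; adjusted p = 0.00417, limma) and Mfap5 (−3.07 ± 0.49, SE; adjusted p = 0.0347, limma). With the block 4 were lower and in replicates 2 and 3 alone 6, and none was higher in either. These counts, and those of the other marker lists, stand beside 2.44%, 10.4% and 29.0% of all genes called in these fits. Cd34 and Pdgfra were also lower in every Smyd2 SMC-/- library (adjusted p = 0.0669 and 0.0601, limma). Scara5 and Clec3b overlapped and differed in sign over the pairs (log2 difference 0.08 and 0.05). Dpt was called without each library in turn (adjusted p up to 0.0407), and Mfap5 was not called without replicate 2 or 3 of either genotype (0.110 to 0.158) or with no filter (0.0573). Dpt, the matrix protein dermatopontin, was at 143.9, 90.3 and 65.5 FPKM in Smyd2 fl/fl against 3.31, 1.15 and 0.63 FPKM in replicates 1 to 3 of Smyd2 SMC-/-. The list summed to 297.8, 648.7 and 565.2 FPKM in Smyd2 fl/fl against 57.1, 181.9 and 164.6 FPKM in replicates 1 to 3 of Smyd2 SMC-/-. Ly6a was its most abundant gene in each library but Smyd2 fl/fl replicate 1, where Dpt and Cd34 were above it, with 52.6, 377.7 and 327.3 FPKM and 36.4, 141.3 and 130.1 FPKM, and Dpp4 was at 0.02 to 0.14 FPKM. Of the 9 markers, 4 were thus lower in every Smyd2 SMC-/- library, as Aspn was, while Fmod and Podn were higher in every one. Among all genes tested, the genotypes did not overlap at 28.1%, 1642 genes higher and 1891 lower. The part of these markers in the SLRP results was not tested.

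Of 8 smooth muscle markers, 5 were tested and 1 fell, Acta2, which was at 761.5, 682.4 and 683.0 FPKM in Smyd2 fl/fl against 201.0, 267.9 and 262.1 FPKM in replicates 1 to 3 of Smyd2 SMC-/- (−1.55 ± 0.15, SE; adjusted p = 0.00803, limma). Acta2 was not called without Smyd2 fl/fl replicate 2 or 3 or Smyd2 SMC-/- replicate 3 (adjusted p from 0.0533 to 0.0615). The list summed to 921.7, 821.8 and 814.5 FPKM in Smyd2 fl/fl against 263.4, 429.1 and 376.7 FPKM in replicates 1 to 3 of Smyd2 SMC-/-, most of it Acta2. The other 4 tested markers overlapped between genotypes. In the replicate 1 pair Tagln, Cnn1 and Lmod1 were lower in Smyd2 SMC-/-, by 6.46, 7.79 and 2.69 times, and over all 6 libraries the log2 difference was −0.92 for Tagln, −0.91 for Cnn1 and 0.24 for Lmod1 (adjusted p = 0.496, 0.399 and 0.817, limma). In replicates 2 and 3 alone the log2 difference was −0.08 for Tagln, −0.07 for Cnn1 and 0.05 for Smtn, none of them called by limma, and Lmod1, the leiomodin of smooth muscle, was 2.01 and 2.13 times as high in Smyd2 SMC-/- (0.83; adjusted p = 0.00335, limma). The list median was −0.91 in all libraries and −0.07 in replicates 2 and 3 alone. Of the 4 mesothelial markers, 1 fell, and with the block 2 were higher and 1 was lower, against 2 and 2 in replicates 2 and 3 alone. Krt19, a keratin, fell (−2.10 ± 0.32, SE; adjusted p = 0.0317, limma), but was not called without any 1 of the Smyd2 fl/fl libraries or without Smyd2 SMC-/- replicate 3 (0.0607 to 0.144), nor with no filter (0.0555). The list summed to 58.0, 124.9 and 119.1 FPKM in Smyd2 fl/fl against 25.9, 157.5 and 87.7 FPKM in replicates 1 to 3 of Smyd2 SMC-/-. Msln, the mesothelial surface protein mesothelin, was at 0.52 and 0.74 FPKM in the replicate 1 libraries of the 2 genotypes and at 6.92 to 26.0 FPKM in the other libraries, low in the same libraries as Dcn and Prelp. Krt19 was the most abundant of the list in each Smyd2 fl/fl library, at 47.8, 57.6 and 54.3 FPKM, against 8.71, 20.5 and 8.53 FPKM in replicates 1 to 3 of Smyd2 SMC-/-. There Upk3b was the most abundant, at 9.02, 38.5 and 38.2 FPKM and 14.5, 120.9 and 67.0 FPKM. The part of these markers in the SLRP results was not tested.

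**Figure D4:**
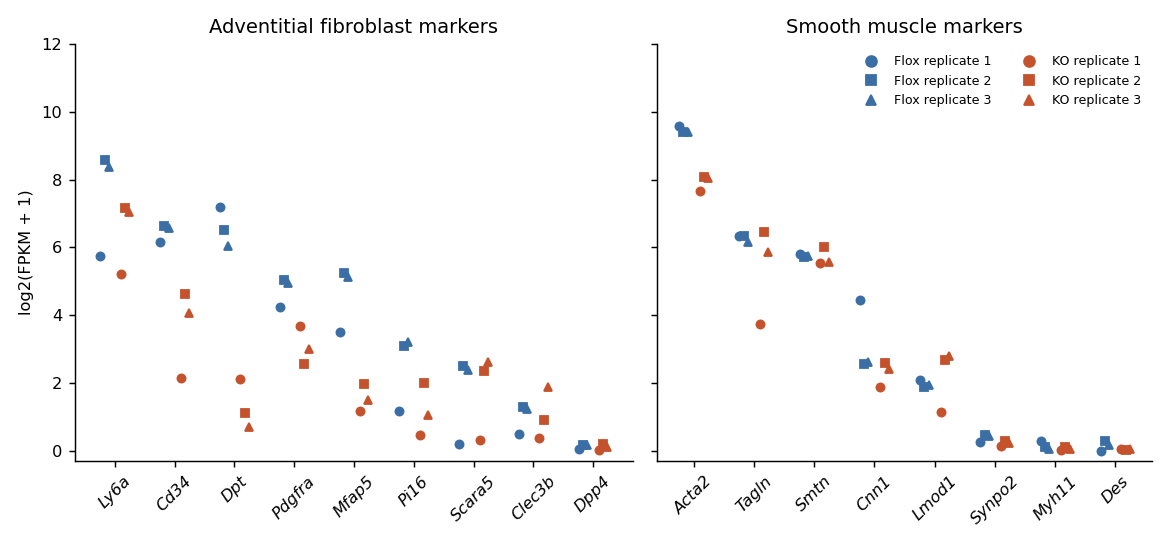
Levels of the adventitial fibroblast (left) and smooth muscle (right) markers in each library as log2(FPKM + 1), with Smyd2 fl/fl (Flox) in blue, Smyd2 SMC-/- (KO) in orange and symbols by replicate. Dpt, Mfap5 and Acta2 are lower in every Smyd2 SMC-/- library, and Myh11 and Des are near 0 throughout.

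Markers of the remaining cell types were low, with exceptions in single genes. No gene of these 5 lists was called by limma, and 3 were higher and 1 was lower at an unadjusted p under 0.05, while 3 were higher and 2 lower in replicates 2 and 3 alone. With the block, Sox9, the chondrocyte factor, was lower (adjusted p = 0.0183, limma). The 7 endothelial markers in the table summed to 1.53 to 2.04 FPKM in Smyd2 fl/fl against 1.90 to 5.40 FPKM in Smyd2 SMC-/-. They were led by Pecam1 in Smyd2 fl/fl and by Kdr in Smyd2 SMC-/-. Kdr was higher in every Smyd2 SMC-/- library (0.47 to 0.84 against 0.96 to 5.15 FPKM), whereas Pecam1 was lower in every one (0.56 to 0.92 against 0 to 0.18 FPKM), Vwf was lower in all 3 pairs, and Cdh5, the endothelial cadherin, was at 0 to 0.01 FPKM. The 8 macrophage markers summed to 4.94 to 9.01 and 5.62 to 7.80 FPKM, led by Cd68, and Ptprc, the pan-leukocyte CD45 gene, was at 0 to 0.02 FPKM. Csf1r was higher in every Smyd2 SMC-/- library (0.48 to 0.58 against 1.14 to 1.66 FPKM), whereas Lyz2 was lower in all 3 pairs. Of the Schwann cell markers, S100b was at 0.34 to 1.38 FPKM in Smyd2 fl/fl against 0.98 to 12.7 FPKM in Smyd2 SMC-/-, and Sox10, their defining factor, was at 0 to 0.02 FPKM. The 6 chondrocyte and osteoblast markers in the table summed to 27.5 to 45.9 and 15.3 to 30.8 FPKM, led by Sox9 in Smyd2 fl/fl replicates 2 and 3 and by Runx2 in the other libraries, and Sp7 and Col2a1 were at 0 to 0.23 FPKM. Of the adipocyte markers, Fabp4, which encodes a fatty acid-binding protein, was at 118.6 FPKM in Smyd2 SMC-/- replicate 1 and at 3.12 to 6.19 FPKM in the other libraries, while Adipoq, Plin1 and Cidec were at 0 to 0.09 FPKM. Lep, Cfd, Cldn5, Acan and Ibsp of these lists were not analysed here.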

How the data were processed

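The methods state that RNA-seq was performed on the BGISEQ-500 platform, and 6 libraries were used here. The sample labels name other kits, Promega for RNA and Illumina TruSeq for the library, and which holds is not known. After read filtering in SOAPnuke and mapping in HISAT and Bowtie2, the authors estimated expression in RSEM and deposited FPKM values with 2 decimals for 18112 genes, 1125 of them without a symbol. Tool versions, the genome build and the use of strand are not given in the sources used here. Library depth was estimated from the spacing of low FPKM values of 4343 genes with 1 listed transcript of known length, after taking 75 bases off each length, a number chosen from the values. The depth taken was the one, of those tried, with the most low values within 0.15 of a whole number of fragments. That share was 64.5% to 68.9% per library, beside 30.0% for values with no steps at a fixed depth. As the depth was chosen to raise this share, the comparison is not a test of it.

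The log2 of FPKM, with a pseudocount of 1, was fitted with limma 3.58.1 in R 4.3.3 (lmFit, eBayes with trend and robust) over the 12565 genes that averaged 0.5 FPKM or more, and p-values were adjusted by Benjamini and Hochberg over all of them. Python 3.11.15 tools gave the exact permutation tests (scipy), tables and figures. The script was tested on simulated data. Alternatives were a pseudocount of 0.1, no filter, the replicate number as a block, a term for replicate 1, replicates 2 and 3 alone, each library left out in turn, rescaling to TPM and quantile normalization. Same-numbered libraries deviated together from their group means, with correlations of 0.61, 0.46 and 0.53 across genes, and the numbers in the sample titles were used as a block on that basis. Unlike-numbered libraries of replicates 2 and 3 were as alike (0.46 and 0.44), while those of replicate 1 with another number gave −0.56 to −0.51. The values thus set replicate 1 apart and do not tell number 2 from 3, and no source names a shared litter or day.

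The members and lists were chosen with earlier results of these data known. Named genes were the 9 members, Smyd2, from each related list the called genes (up to 4) and the gene with the highest mean FPKM, from each marker list the gene with the highest mean and defining genes near 0, and for the 3 members with the highest mean FPKM the 3 genes of most similar pattern. Further genes, Dpt, Mfap5, Cd34, Pdgfra, Scara5, Clec3b, Tagln, Cnn1, Smtn, Lmod1, Krt19, Sox9, Msln, Col14a1, Col6a1, Pcolce, Dse, Chst1, Ccn2, Pecam1, Vwf, Csf1r, Lyz2, Podnl1, Chadl and Cenpp, were named after their values were seen. Ccn2 and Ccn4 were matched by gene number under their older symbols. Chsy3, Acan, Gpc5, Spock1, Cldn5, Lep, Cfd and Ibsp were not analysed here.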

Additional observations from a re-analysis of the deposited data

How the results depend on the processing

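Against 306 genes called by limma over all 6 libraries, 1312 were called with the replicate block, 2550 with a term for replicate 1, 3650 in replicates 2 and 3 alone, and 34 to 686 without 1 library. The SLRP genes called were 1 against 3, 6 and 5 under those fits and 0 to 3 without 1 library. At an unadjusted p under 0.05 they were 3 of 9 (33.3%) beside 20.3% of all genes, 66.7% beside 32.1%, 66.7% beside 36.4% and 77.8% beside 41.1% under those fits, and 22.2% to 55.6% beside 12.9% to 26.0% without 1 library. Aspn, which had to differ to pass the filter, is in these SLRP counts and shares wherever it passed, so nothing is read from them. The related list genes called were 5, 20 with the block and 44 in replicates 2 and 3 alone. The pseudocount of 0.1, no filter, TPM and quantile normalization kept these counts within 1.5 times for all genes and at 1 for the SLRP genes. Of 117 differences of single SLRP genes under the alternatives, 87 kept their sign and side of the threshold, 14 passed it, 4 no longer did and 12 changed sign. The sign changes were those of Bgn under TPM (0.080) and quantile normalization (0.12), Ogn in replicates 2 and 3 alone (−0.20), and others without 1 library, where the log2 difference ranged from −0.89 to 1.79 for Dcn, −0.28 to 0.088 for Bgn, −0.40 to 1.72 for Prelp and −0.25 to 0.37 for Ogn. The cause was not tested. Fits without 1 library have fewer samples. Beyond the results given with it, the replicate block changed no other call of a SLRP gene. Shares in the summed FPKM were recomputed in replicates 2 and 3 alone and without 1 library, where each difference moved by less than the SD pooled over both genotypes. That SD is large: the difference turned from 1.65 to −0.19 percentage points for Dcn without Smyd2 fl/fl replicate 1 and from 0.16 to −0.09 for Ogn in replicates 2 and 3 alone, and without 1 library it reached 4.19 for Dcn and lay between 0.24 and 3.86 for Prelp. The largest moves of Podn (0.19), Fmod (0.17) and Lum (0.09) were above the SD of Smyd2 fl/fl alone (0.033, 0.12 and 0.015). Depth limits the Smyd2 SMC-/- values of Aspn (about 2, 0 and 0 fragments) and, in replicate 1, Lum and the Smyd2 fl/fl value of Podn, which rest on few fragments. Low as well were the Smyd2 fl/fl values of Aspn (about 107, 61 and 66) and of Lum in replicates 2 and 3 (about 62 and 55).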

Other observations

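SLRP genes lie next to each other in the mouse genome, by gene order in RefSeq on assembly GRCm38.p6. Dcn, Lum, Kera and Epyc follow one another on chromosome 10. Their levels differed widely, with Dcn at 13.9 to 382.9 FPKM, Lum at 0 to 14.5 FPKM, Epyc at 0 to 0.34 FPKM and Kera at 0 to 0.04 FPKM. Ecm2, Aspn, Omd and Ogn follow one another on chromosome 13. Of these, Aspn was lower in every Smyd2 SMC-/- library, Omd and Ogn overlapped between genotypes, and Ecm2 was at 0.23 to 0.37 FPKM in Smyd2 fl/fl and 0.15 to 0.19 FPKM in Smyd2 SMC-/- libraries, below the filter on low values. Optc, Prelp and Fmod follow one another on chromosome 1, and Optc was at 0.14 to 0.54 FPKM.

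The genes most like each of the 3 most abundant SLRP genes were sought among 6617 genes that averaged 10 FPKM or more, by the mean absolute difference in log2(FPKM + 1) centred on each gene's mean over the 6 libraries. For Bgn they were Pold4 (0.03), Cyb5r3 (0.03) and Gng10 (0.04). For Dcn they were Ifit3 (0.16), Bst2 (0.26) and Tgtp1 (0.28). Ifit3 was at 11.3, 281.9 and 359.8 FPKM in Smyd2 fl/fl against 26.0, 397.8 and 351.9 FPKM in replicates 1 to 3 of Smyd2 SMC-/-, so that its low libraries were the replicate 1 libraries, as for Dcn. For Prelp they were Cyp2s1 (0.20), Ifi204 (0.24) and Tgtp1 (0.27). Cyp2s1 was at 1.73, 22 and 23.1 FPKM in Smyd2 fl/fl against 3.86, 31.4 and 28.7 FPKM in replicates 1 to 3 of Smyd2 SMC-/-. Likeness over 6 libraries is a description of these libraries.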
